A study of Mus musculus with 8 samples.

Results

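The TNF family ligands are cytokines that T cells display on their surface or release, and 10 of their genes are described here: Tnf, Lta, Ltb, Fasl, Tnfsf4, Tnfsf8, Tnfsf10, Tnfsf11, Tnfsf14 and Cd70. They were chosen by symbol, and all 10 were found among the 19938 genes with a symbol of their own, each read by 1 transcript cluster (the set of array probes that reads one gene). RNA came from mouse naive CD4 T cells, the helper T cells that have not yet met antigen. Wild-type mice gave 4 samples, and mice lacking Bcl6 only in their T cells gave 4 (called Bcl6 cKO here). After sorting, the cells of both groups spent 24 hours with stimulating antibodies against CD3 and CD28, so no group shows the ligands at rest. The labels do not state the promoter that drives the deletion, the removed exons, or the strain, age and sex of the mice. Nor do they state whether each sample is a separate mouse. The p-values here therefore measure how far these samples vary, which may be technical in part. The comparison asks which genes Bcl6, a transcriptional repressor that directs follicular helper T cells, controls in these cells.

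Ligands of this family fold into trimers and bring receptors of the TNF receptor family together on the partner cell. Receptors with a death domain can start apoptosis, and the others recruit TRAF adaptors that switch on NF-kappaB and survival or growth. In CD4 T cells antigen receptor signalling, through NFAT, NF-kappaB, AP-1 and Egr factors, is known to induce most of these genes, and the ligands shape lymphoid tissue, help to B cells, T cell memory and the death of activated T cells.

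The arrays were alike as a whole. The median log2 signal lay between 7.57 and 7.64, and across genes no pair of arrays correlated below 0.994. The 7 measured CD4 T cell markers, among them Cd3e, Cd4 and Cd28, were between 11.18 and 13.20 on every array, and Il2ra and Cd69, markers of activation, between 12.05 and 13.24. Y-linked genes were high on 3 wild-type arrays (replicates 1 to 3) and 1 Bcl6 cKO array (replicate 1), so sex was unequal between the groups. Neither group therefore came from a single mouse, and how many mice each held remains unknown. Those genes on the other arrays, and Xist on these, reached up to 6.28, which serves here as the level below which a signal was not shown to stand above background. That level rests on few genes and lies below the array medians, so a mean above it does not by itself show expression. Of the measured markers of other cells, 3 of 5 for B cells, 2 of 5 for myeloid cells, 4 of 5 for dendritic cells, 1 of 4 for NK cells and 2 of 2 for erythroid cells had a mean above that level. None of these lists had a gene past the threshold by genotype. All 5 dendritic cell markers had a mean below wild type in Bcl6 cKO (median log2 difference -0.09), as did 3 of 4 NK cell markers (median -0.19). Of the NK cell markers 2 had an unadjusted p under 0.05 in limma, Klrd1 and Klrb1c, both with means below that level. The medians were 0.05 for B cell, 0.07 for myeloid and 0.07 for erythroid markers. Bcl6 itself had a log2 signal of 8.37 ± 0.20 on wild-type arrays and 8.74 ± 0.27 on Bcl6 cKO arrays (SD, n = 4 each), with overlapping groups (limma adjusted p = 0.337). With the removed exons unknown, it checks nothing about the labels.

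No TNF family ligand gene differed between the genotypes past an adjusted p of 0.05 over all genes (0 of 10 in limma, against 0.221% of all genes, or 44, of which 21 were higher and 23 lower). That balance moved with scaling, to 19 higher and 13 lower after median centring and 22 and 14 after quantile normalization. Before adjustment 2 of the 10 had a p under 0.05, Ltb on the lower side and Tnfsf11 on the higher side, against 10.9% of all genes. Of the 10 genes, 3 had a mean above wild type and 7 below, with a median log2 difference of -0.03. Over all genes 10391 had a mean above wild type and 9547 below, with a median of 0.003. For 8 of the 10 the 95% confidence interval of the log2 difference held 0. Adjusted p-values ran from 0.136 for Ltb to 0.973 for Tnfsf10. The number of arrays limits the precision, and in bulk RNA fewer cells that express a gene and less RNA per cell cannot be told apart.

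**Figure D1:**
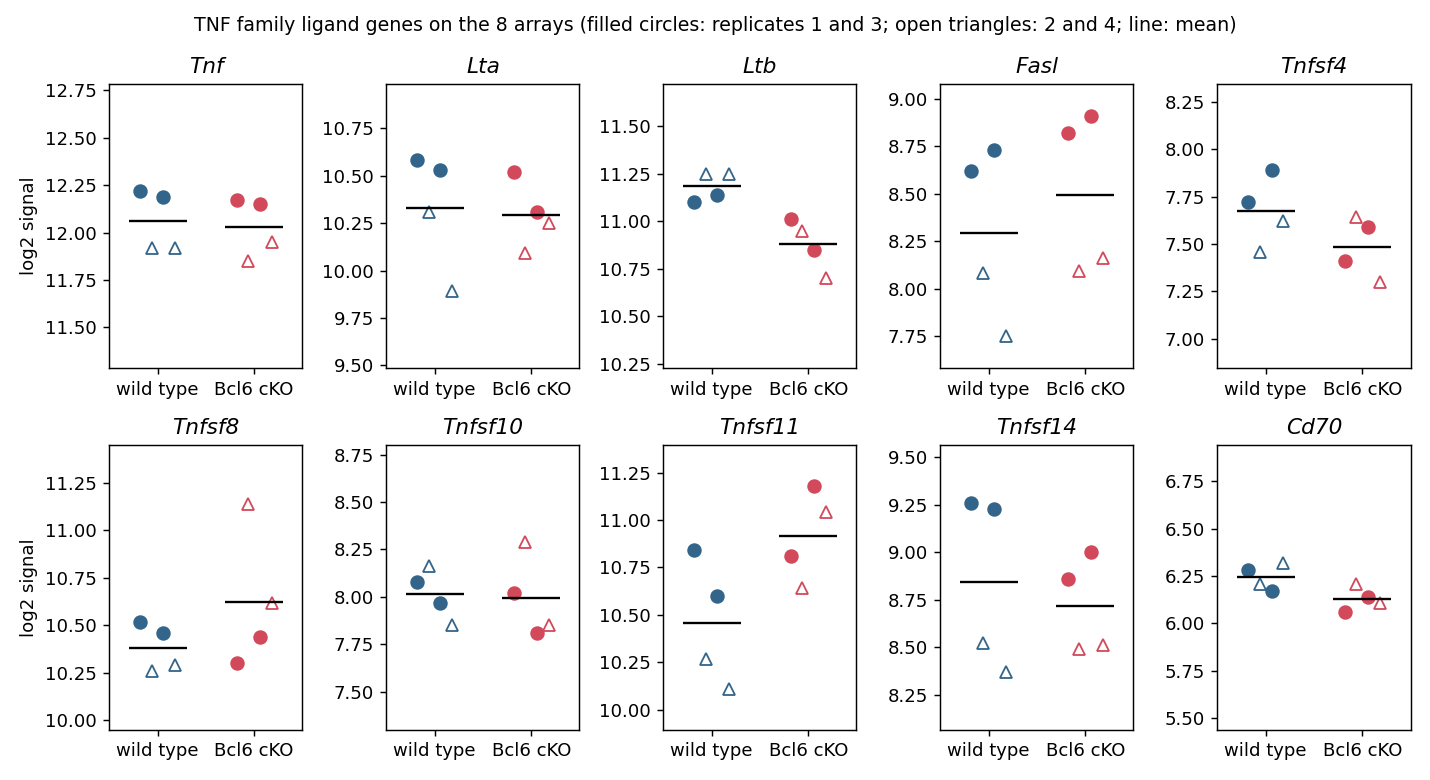
Log2 signal (vertical axis, each panel spanning the same range of log2 units) of the 10 ligand genes on the 4 wild-type arrays (blue) and 4 Bcl6 cKO arrays (red). Filled circles are replicates 1 and 3, open triangles replicates 2 and 4, and the line is the group mean; the groups are separate for Ltb, and circles lie above triangles in both genotypes for Tnf, Fasl and Tnfsf14.

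Tnf, Lta and Ltb are neighbours on chromosome 17, with no other tested gene between Ltb and Tnf or between Tnf and Lta in the gene order of GRCm38.p6. Tnf encodes the soluble and membrane cytokine of that name, Lta lymphotoxin alpha, and Ltb the membrane chain that holds lymphotoxin alpha at the cell surface. The lymphotoxin heterotrimer signals through the receptor of Ltbr to build and maintain lymphoid tissue.

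Ltb had the smallest p of the 10 genes. Its log2 signal was 11.10, 11.25, 11.14 and 11.25 on wild-type replicates 1 to 4 and 11.01, 10.95, 10.85 and 10.70 on Bcl6 cKO replicates 1 to 4. Every wild-type array lay above every Bcl6 cKO array, which held for 1 of the 10 genes and, with Bcl6 cKO the lower group, for 3.64% of all genes. Means were 11.19 ± 0.08 and 10.88 ± 0.14 (SD, n = 4 each), so Bcl6 cKO was 1.24-fold lower. The log2 difference was -0.31, with an SE of 0.0723 and a 95% interval of -0.47 to -0.15. It reached the smallest p that a two-sided exact permutation test of 4 against 4 arrays can give (0.0286) and did not pass in limma over all genes (p = 0.00148, adjusted p = 0.136). Within the arrays of high Y-linked signal the difference was -0.15 (3 wild-type arrays, 1 Bcl6 cKO array), and within the others -0.42 (1 and 3).

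Markers of other T cell subsets lay on the same side as Ltb, as did most CD4 T cell markers. Of the 7 measured CD4 T cell markers, 6 had a lower mean in Bcl6 cKO (median log2 difference -0.09). Cd3e and Cd3d were separate between the groups, against 3.64% of all genes with Bcl6 cKO the lower group. Of the 6 activation markers, 4 had a higher mean in Bcl6 cKO. All 3 regulatory T cell markers had a lower mean in Bcl6 cKO, and the mean of their log2 signals was 9.19 to 9.52 on wild-type and 8.50 to 8.81 on Bcl6 cKO arrays. Foxp3, the defining factor of these cells, ran from 9.61 to 9.86 on wild-type and from 8.83 to 9.60 on Bcl6 cKO arrays (limma adjusted p = 0.2). Gpr83 had a log2 difference of -1.20 (limma adjusted p = 0.0665) and Ikzf2 -0.24 with overlapping groups. Cd8b1, a chain of CD8, was also lower (log2 difference -0.47, limma adjusted p = 0.0541), with means of 11.04 in wild type and 10.57 in Bcl6 cKO. Cd8a had -0.02 and was not separate between the groups. Its means of 6.99 and 6.97 lay below the array medians, so it could show little of a difference. The part of regulatory and CD8 T cells in the Ltb difference was not tested.

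The promoter window of Ltb is shown because this gene had the clearest separation by genotype. It runs from 250 bases before to 50 after the transcription start, at chr17:35194257-35194556 on the plus strand (RefSeq, GRCm38.p6), and capitals mark every match to the motifs searched on both strands. These were the NFAT core GGAAA, AP-1 TGANTCA, NF-kappaB (GGG and CC with any 5 bases between them), EGR GCGNGGGCG and the element TTCNNNGAA that Bcl6 shares with STAT factors. Of the 10 genes 8 matched an entry, all but Tnfsf4 and Cd70.
Ltb: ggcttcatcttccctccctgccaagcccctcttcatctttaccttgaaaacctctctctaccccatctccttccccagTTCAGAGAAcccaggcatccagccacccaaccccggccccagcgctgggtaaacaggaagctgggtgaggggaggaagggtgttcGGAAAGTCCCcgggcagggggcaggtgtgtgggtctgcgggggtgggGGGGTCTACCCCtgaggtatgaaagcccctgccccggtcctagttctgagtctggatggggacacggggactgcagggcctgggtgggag
The window holds 1 TTCNNNGAA match, TTCAGAGAA, beginning at position -172 from the start, and such a match is in 8.3% of the 32851 windows of all genes. It holds 4 NF-kappaB matches, of which GGAAAGTCCC overlaps the NFAT core match and the other 3 overlap each other. Such matches are frequent, with an NF-kappaB match in 50.8% and an NFAT core in 61.3% of all windows. The window of the neighbour Lta, whose groups overlapped by genotype, holds 2 TTCNNNGAA matches. A match describes the letters and shows no binding.

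Tnf did not follow Ltb. Its log2 signal was 12.22, 11.92, 12.19 and 11.92 on wild-type replicates 1 to 4 and 12.17, 11.85, 12.15 and 11.95 on Bcl6 cKO replicates 1 to 4. The groups overlapped almost fully, with means of 12.06 ± 0.17 and 12.03 ± 0.16 (SD, n = 4 each). The log2 difference was -0.03 with a 95% interval of -0.24 to 0.18 (limma adjusted p = 0.954), and it was 0.06 within the arrays of high and 0.06 within those of low Y-linked signal. Lta was 10.58, 10.31, 10.53 and 9.89 on the wild-type arrays and 10.52, 10.09, 10.31 and 10.25 on the Bcl6 cKO arrays. Wild-type replicate 4 was the lowest of the 8 and the groups overlapped (log2 difference -0.04, 95% interval -0.35 to 0.28, limma adjusted p = 0.968). Whether the difference of Ltb is unequal to those of its neighbours was not tested.

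The death ligands showed no genotype difference past the threshold. Fasl encodes the ligand of Fas, by which activated T cells are removed and target cells killed. Its log2 signal was 8.62, 8.08, 8.73 and 7.75 on wild-type replicates 1 to 4 and 8.82, 8.09, 8.91 and 8.16 on Bcl6 cKO replicates 1 to 4. It had the widest spread of the 10 genes, with a residual SD of 0.446 against a median of 0.093 over all genes. Means were 8.29 ± 0.46 and 8.50 ± 0.43 (SD, n = 4 each), with a log2 difference of 0.20 and a 95% interval of -0.33 to 0.73 (limma adjusted p = 0.849). Single arrays moved this value: it was 0.02 without wild-type replicate 4 and 0.35 without wild-type replicate 3. Tnfsf10 encodes TRAIL, which binds the death receptor of Tnfrsf10b. It was 8.08, 8.16, 7.97 and 7.85 on the wild-type arrays and 8.02, 8.29, 7.81 and 7.85 on the Bcl6 cKO arrays, groups that overlapped throughout (log2 difference -0.02, 95% interval -0.26 to 0.21, limma adjusted p = 0.973).

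The costimulatory ligands act on T cells or on antigen-presenting cells, and none of the 4 passed. Tnfsf4 (OX40 ligand) was 7.72, 7.46, 7.89 and 7.62 on the wild-type arrays and 7.41, 7.64, 7.59 and 7.30 on the Bcl6 cKO arrays. Bcl6 cKO replicates 1 and 4 were the lowest of the 8 and the groups overlapped (log2 difference -0.19, 95% interval -0.41 to 0.03, limma adjusted p = 0.544). Tnfsf8 (CD30 ligand) was 10.52, 10.26, 10.46 and 10.29 on the wild-type arrays and 10.30, 11.14, 10.44 and 10.62 on the Bcl6 cKO arrays. Bcl6 cKO replicate 2 stood highest, which gave that group an SD of 0.37 against 0.13 in wild type (log2 difference 0.24, 95% interval -0.09 to 0.58, limma adjusted p = 0.628). Without that array the log2 difference of Tnfsf8 was 0.07.

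Tnfsf14 encodes LIGHT, which binds the receptors of Tnfrsf14 and Ltbr. Its log2 signal was 9.26, 8.52, 9.23 and 8.37 on wild-type replicates 1 to 4 and 8.86, 8.49, 9.00 and 8.51 on Bcl6 cKO replicates 1 to 4. The groups overlapped (log2 difference -0.13, 95% interval -0.58 to 0.32, limma adjusted p = 0.893). Its neighbour on chromosome 17 is Cd70, which encodes the ligand of CD27, with no tested gene between them. Cd70 lay between 6.17 and 6.32 in wild type and between 6.06 and 6.21 in Bcl6 cKO, with both means (6.25 and 6.13) below 6.28. Cd70 was therefore not shown to stand above background in either group, and no fold is given.

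Tnfsf11, which encodes RANKL, the cytokine that drives osteoclast formation and lymph node development, had the largest log2 difference of the 10 genes. Its log2 signal was 10.84, 10.27, 10.60 and 10.11 on wild-type replicates 1 to 4 and 10.81, 10.64, 11.18 and 11.04 on Bcl6 cKO replicates 1 to 4. Bcl6 cKO replicates 3 and 4 lay above all wild-type arrays, while replicates 1 and 2 lay within their range. Means were 10.46 ± 0.33 and 10.92 ± 0.24 (SD, n = 4 each), so Bcl6 cKO was 1.38-fold higher (log2 difference 0.46, SE 0.159, 95% interval 0.11 to 0.81). Neither an exact permutation test (two-sided, p = 0.0857) nor limma (adjusted p = 0.307) passed. The difference was 0.24 within the arrays of high and 0.84 within those of low Y-linked signal, each with a lone array of 1 genotype. A test of whether the genotype difference depended on Y-linked signal passed for none of the 10 genes (limma interaction, lowest adjusted p = 0.506, with 1 array in 2 of the 4 cells).

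**Figure D2:**
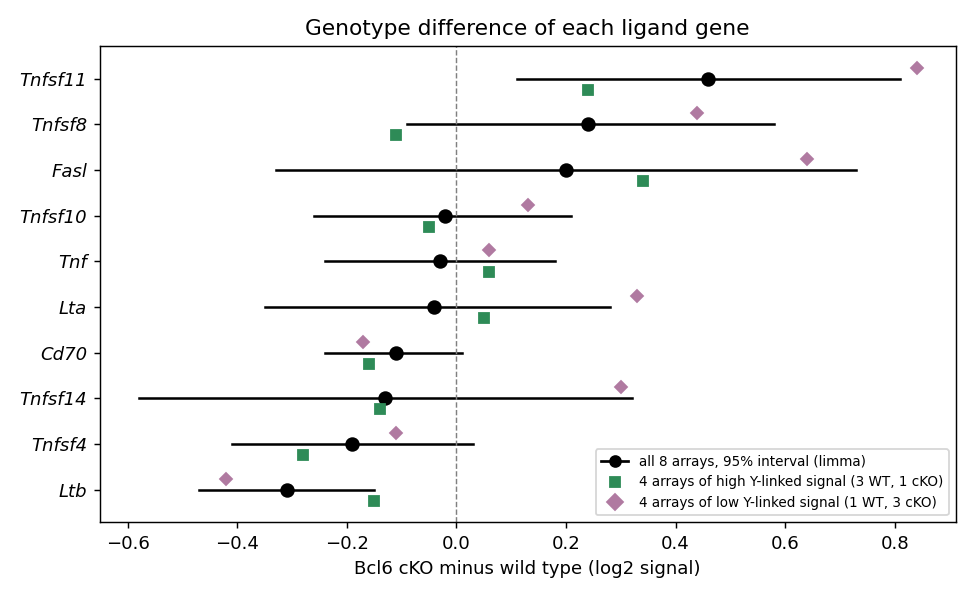
Difference in log2 signal, Bcl6 cKO minus wild type, for each ligand gene (black point, mean over 4 against 4 arrays; line, 95% confidence interval from limma). Squares and diamonds give the difference within arrays of high and of low Y-linked signal, and the intervals exclude 0 for Ltb and Tnfsf11 before adjustment over all genes.

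Several ligand genes differed more between array numbers than between genotypes. In both genotypes replicates 1 and 3 were higher than replicates 2 and 4 for Tnf, Fasl and Tnfsf14. Tnf was 12.15 to 12.22 on the 4 odd-numbered arrays and 11.85 to 11.95 on the 4 even-numbered ones. Fasl was 8.62 to 8.91 against 7.75 to 8.16, and Tnfsf14 8.86 to 9.26 against 8.37 to 8.52. In these 3 of 10 genes odd and even arrays did not overlap, against 2.47% of all genes (492) in that direction. Lta came next, with odd arrays from 10.31 to 10.58 and even arrays from 9.89 to 10.31.

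For Tnf and Fasl the sizes of this difference in the genotypes were close. Odd minus even was 0.29 on the wild-type arrays and 0.26 on the Bcl6 cKO arrays for Tnf, and 0.76 and 0.74 for Fasl. It was 0.80 and 0.43 for Tnfsf14, 0.45 and 0.24 for Lta, and 0.53 and 0.16 for Tnfsf11. Ltb (-0.13 and 0.11), Cd70 (-0.04 and -0.06) and Tnfsf10 (0.02 and -0.16) showed no like pattern, and Tnfsf8 had opposite signs (0.22 and -0.51). The labels give the numbers and no meaning for them, this grouping was noticed in the values, and no test of it was made.

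Y-linked signal was high on 3 of the 4 odd arrays and 1 of the 4 even ones, and its part in the odd and even values was not tested. With odd or even number as a term, a fit added after the data were seen, none of the 10 ligand genes passed by genotype (Ltb adjusted p = 0.111, Tnfsf11 adjusted p = 0.136, Fasl adjusted p = 0.292, limma).

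Some of the transcription factors that act downstream of the antigen receptor were higher on the same arrays. Of the 13 measured factors on the list for ligand induction, 5 were separate and higher on odd arrays (Nfatc1, Rel, Egr1, Egr2 and Egr3), against 2.47% of all genes, and 1, Jun, was separate and lower, against 1.68%. In the other 7, among them Fos, Rela and Nfatc2, odd and even arrays overlapped. Odd minus even was 0.77 for Egr3, 0.58 for Egr1, 0.31 for Rel and 0.21 for Nfatc1. Nr4a1, an immediate reporter of antigen receptor signalling, had 0.72, and Cd40lg, the TNF family ligand by which helper T cells license B cells, 0.60. Nr4a1 is 1 of 6 activation markers. Of the others, Cd69 had 0.11, Myc 0.05 and Tfrc 0.01, while Il2 (-0.53) and Il2ra (-0.07) had lower means on odd arrays. Cd40lg was 11.01 to 11.23 on odd arrays and lower on every even array, with a genotype log2 difference of -0.07 (limma adjusted p = 0.952). The named factors, Nr4a1 and Cd40lg were on fixed lists, and were singled out here after their values were seen.

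**Figure D3:**
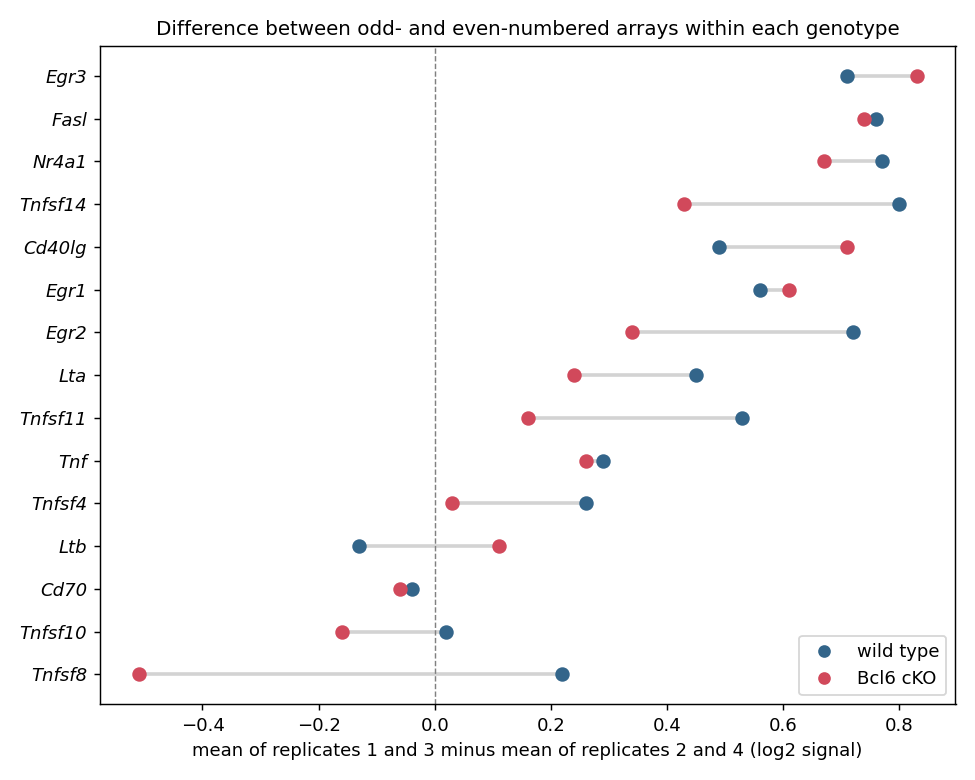
Mean log2 signal of replicates 1 and 3 minus that of replicates 2 and 4 (horizontal axis), within wild type (blue) and within Bcl6 cKO (red), for the 10 ligand genes and for Cd40lg, Egr1, Egr2, Egr3 and Nr4a1. Cd40lg, the Egr genes and Nr4a1 were picked after their values were seen. Fasl (0.76 and 0.74) lies among the Egr genes and Nr4a1, while Ltb, Cd70 and Tnfsf10 lie near 0; each point rests on 2 against 2 arrays.

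Promoter windows of the 3 genes whose odd and even arrays did not overlap are shown together, with motif matches in capitals as for Ltb. They lie at chr17:35201958-35202257 on the minus strand, chr1:161788446-161788745 on the minus strand and chr17:57194132-57194431 on the minus strand.
Tnf: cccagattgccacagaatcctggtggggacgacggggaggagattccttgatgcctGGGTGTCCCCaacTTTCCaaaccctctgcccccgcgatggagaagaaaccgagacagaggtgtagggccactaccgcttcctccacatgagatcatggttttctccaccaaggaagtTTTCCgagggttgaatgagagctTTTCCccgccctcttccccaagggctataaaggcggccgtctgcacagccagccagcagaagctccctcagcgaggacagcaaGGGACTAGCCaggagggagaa
Fasl: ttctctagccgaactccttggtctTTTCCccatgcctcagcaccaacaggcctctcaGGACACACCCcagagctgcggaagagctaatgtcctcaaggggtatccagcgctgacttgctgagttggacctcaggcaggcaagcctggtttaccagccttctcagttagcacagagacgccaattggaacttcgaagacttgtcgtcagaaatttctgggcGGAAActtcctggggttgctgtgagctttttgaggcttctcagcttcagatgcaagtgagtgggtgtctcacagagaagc
Tnfsf14: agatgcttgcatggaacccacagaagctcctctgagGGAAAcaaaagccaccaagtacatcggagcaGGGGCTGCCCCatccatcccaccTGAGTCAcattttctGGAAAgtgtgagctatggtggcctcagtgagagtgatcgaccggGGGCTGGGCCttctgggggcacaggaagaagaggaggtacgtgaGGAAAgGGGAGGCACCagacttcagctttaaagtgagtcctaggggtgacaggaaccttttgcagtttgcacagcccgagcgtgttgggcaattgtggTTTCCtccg
Tnf has 3, Fasl 2 and Tnfsf14 4 matches to the NFAT core. Of the other ligand windows, Lta has 3, and Ltb, Tnfsf8, Tnfsf10 and Tnfsf11 have 1 each. All 8 windows thus hold an NFAT core, as do 61.3% of all windows, and the number per window was not compared with other genes. NF-kappaB matches number 2 in Tnf, 1 in Fasl and 4 in Tnfsf14. They number 4 in Ltb, 2 in Lta, 2 in Tnfsf11 and 0 in Tnfsf8 and Tnfsf10. Any link of the matches to the odd and even values was not tested. The AP-1 motif was found in 1 of the 8, Tnfsf14 (TGAGTCA, beginning at position -160), against 7.81% of all windows. None of the 8 windows held the EGR letters, which were in 5.55% of all windows. TTCNNNGAA was in 2 of the 8, Ltb with 1 match and Lta with 2.

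By the rule that names the genes most like each ligand, Pearson's r was taken over the 8 arrays after each group's mean was subtracted, among 9961 other genes with a mean signal above the median. The pair most like Fasl was Man2a2 and Fut8 (r = 0.993 and 0.992), and for Tnf it was Tpm4 and Foxp4 (0.993 and 0.992). Alcam and Ncs1 came closest to Tnfsf14 (0.994 and 0.991), and Gpr183 and Rab8b to Tnfsf8 (0.992 and 0.990). Zfp866 and Herc3 were the closest to Ltb (0.988 and 0.982), Pih1d1 and Mgmt to Lta (0.988 and 0.982), and Pum2 and Magef1 to Tnfsf4 (0.993 and 0.988). For Tnfsf11 they were St3gal3 and Bzw2 (0.981 and 0.977), for Tnfsf10 Appl1 and Panx1 (0.980 and 0.976), and for Cd70 Serp1 and Afap1 (0.938 and 0.935). These are the highest of many values over few arrays, which for Tnf, Fasl and Tnfsf14 fall into the odd and even sets, and they are a description only.

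The other genes of the pathway, from lists fixed by function, likewise gave no call. Their counts stand beside those of all genes, of which 10.9% had an unadjusted p below 0.05 in limma. Of the 19938 genes 9547 had a mean below wild type, and 3.64% were separate with Bcl6 cKO the lower group. Among 6 other measured TNF superfamily ligands 0 passed in limma (1 with an unadjusted p below 0.05) and 5 were below wild type, with a median log2 difference of -0.09. Eda (ectodysplasin) was separate between the groups (log2 difference -0.19, limma adjusted p = 0.283). Its means of 6.62 in wild type and 6.44 in Bcl6 cKO lay close to the background level of 6.28. Tnfsf9 (4-1BB ligand) had -0.15, and Tnfsf18 lay below the background level. Of the 10 receptors of the ligands, 0 passed in limma (4 with an unadjusted p below 0.05) and 7 were below wild type, with a median of -0.08.

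Among the receptors, Tnfrsf10b, the receptor of TRAIL, was 9.68, 9.48, 9.62 and 9.36 on the wild-type arrays and 9.64, 9.94, 9.79 and 9.80 on the Bcl6 cKO arrays. Replicate 1 of Bcl6 cKO lay within the wild-type range and the others above it (log2 difference 0.26, limma adjusted p = 0.275). Cd27, the receptor of CD70, had -0.24 (limma adjusted p = 0.337) and Tnfrsf1a, the ubiquitous TNF receptor, -0.17 (limma adjusted p = 0.336). Of the 4 genes listed as decoy receptors 0 passed (0 with an unadjusted p below 0.05, limma). Tnfrsf26 had the largest difference of these (-0.46), with overlapping groups, Tnfrsf23 had -0.09 and Tnfrsf22 0.06.

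Adaptors that carry the signal gave the smallest p on the pathway lists. Of 10 measured TRAF and death domain adaptors 0 passed in limma (2 with an unadjusted p below 0.05), and 7 were below wild type, with a median of -0.06. Traf5, which transmits signals of OX40, CD27 and the lymphotoxin beta receptor, was 9.29, 9.28, 9.25 and 9.23 on the wild-type arrays and 9.09, 8.90, 8.80 and 8.90 on the Bcl6 cKO arrays. All Bcl6 cKO arrays lay below all wild-type arrays (log2 difference -0.34, SE 0.0631, limma adjusted p = 0.0625). Traf5 passed without Bcl6 cKO replicate 1 (adjusted p = 0.0147), with array weights (adjusted p = 0.0447) and among genes of above-median signal (adjusted p = 0.0423, limma). It did not pass under the other settings, among them a term for Y-linked signal (-0.27, limma adjusted p = 0.22). Its log2 difference was -0.18 within the arrays of high and -0.36 within those of low Y-linked signal. Traf1, induced by NF-kappaB, was also separate, at 10.66 to 10.81 on the wild-type arrays and 10.31 to 10.57 on the Bcl6 cKO arrays (log2 difference -0.26, limma adjusted p = 0.156). Fadd, the adaptor of death receptors, had -0.09.

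The regulators of ligand release and of cytokine mRNA gave no call by genotype. Of 8 genes for shedding and processing, such as the TNF sheddase Adam17, 0 passed in limma (0 with an unadjusted p below 0.05), with a median of 0.01; Sppl2b had 0.10, Timp3 0.08 and Mmp7 -0.04. Of 9 genes for cytokine mRNA decay and stability 0 passed in limma (2 with an unadjusted p below 0.05) and 7 were below wild type, with a median of -0.05. Zfp36, whose protein tristetraprolin destabilises Tnf mRNA, had -0.21, Zc3h12a (Regnase-1) -0.20 and Zfp36l1 -0.22.

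Of the 13 transcription factors of ligand induction 0 passed by genotype in limma (2 with an unadjusted p below 0.05) and 9 were below wild type, with a median of -0.10. Fos had -0.34, Nfatc3 -0.13 and Egr1 -0.37 (limma adjusted p = 0.351, 0.458 and 0.532). Of 8 genes listed as NF-kappaB feedback targets of TNF, a list that also holds the adhesion gene Icam1, 0 passed in limma. Of these, 2 had an unadjusted p below 0.05, and the median was 0.03. Tnip1 was separate between the groups (-0.16, limma adjusted p = 0.298), Bcl3 had -0.28 (-0.17 without Bcl6 cKO replicate 3) and Tnfaip8 0.26 (0.09 without wild-type replicate 4, 0.15 without Bcl6 cKO replicate 3). As with the ligands, the medians of these lists stand beside 0.003 over all genes.

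**Figure D4:**
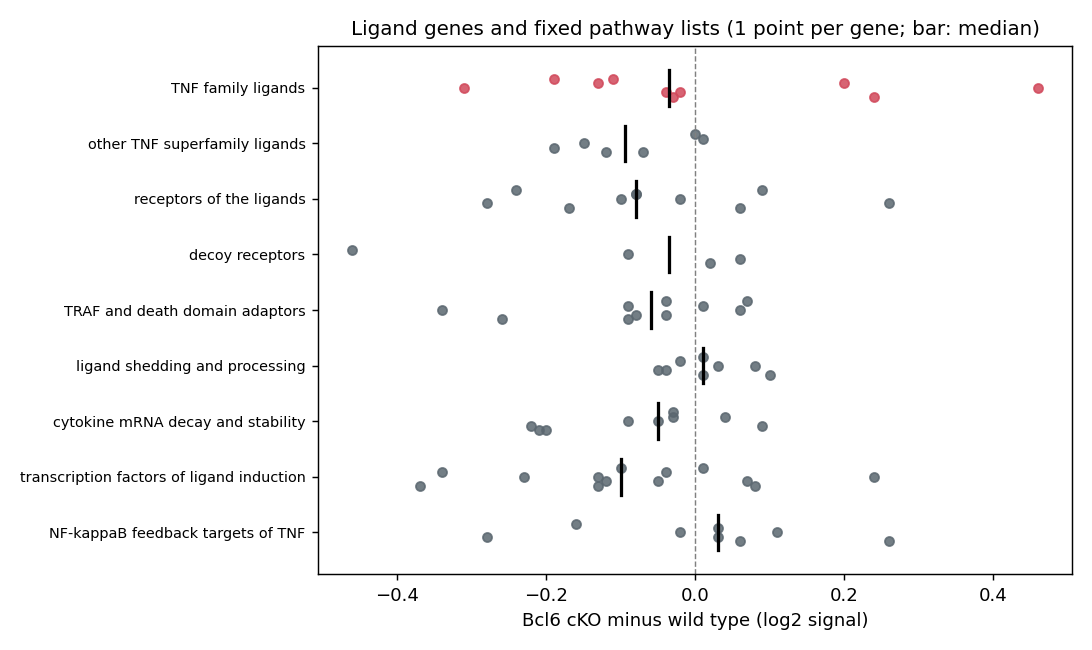
Difference in log2 signal, Bcl6 cKO minus wild type (horizontal axis), with 1 point per gene for the 10 ligand genes (red) and 8 pathway lists (grey); the black bar is the list's median. Medians lie between -0.10 and 0.03, and the ligand genes spread from -0.31 (Ltb) to 0.46 (Tnfsf11).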

How the data were processed

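Gene expression was measured on 8 arrays, 4 of each genotype, from 100 ng of RNA each. The authors deposited 1 log2 signal for each transcript cluster on each array, to 2 decimals. RMA and Partek were used per the submitters' processing notes; their versions and settings were not given in the sources. RMA brings arrays to 1 distribution and shrinks differences of dim genes. Of 35556 clusters, 21789 have 1 gene symbol, 1621 several and 12146 none; the highest-mean cluster per symbol left 19938 genes. All columns of sample values were used.

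Groups came from the sample titles. The test was limma 3.58.1 under R 4.3.3, with a linear model per gene, eBayes moderation (no trend) and no covariate, with Benjamini-Hochberg adjustment over all genes at 0.05. Single values were tested by two-sided exact permutation over 70 splits (scipy 1.17.1). The steps were tested on simulated data. Gene order came from RefSeq GRCm38.p6 through Entrez IDs (19856 genes).

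The genes, lists, rules and alternatives were chosen with earlier results of these data known. Named genes are the 10 ligands, per pathway list the 3 smallest p, and per ligand the 2 most alike; others were picked after their values were seen. Of the list entries, Tnfsf12, Tnfsf13, Traf3, Ripk1 and Nfkb1, among others, matched no tested gene and were not analysed here. Same-numbered arrays had deviations from their group means that correlated, across genes, at 0.07, 0.21, 0.20 and 0.20. Pairs of wild-type and Bcl6 cKO arrays both odd or both even, same-numbered ones included, ran from -0.05 to 0.21. Odd against even arrays ran from -0.24 to 0.02. The labels state no pairing, so the main fit had no term for the numbers, and whether they mark pairs was not settled.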

Additional observations from a re-analysis of the deposited data

How the results depend on the processing

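No ligand gene passed an adjusted p of 0.05 in either direction under any of 21 other settings of the fit, nor, with the settings of the report, at a threshold of 0.1 or 0.01. Ltb came under 0.1 with trend and robust moderation (adjusted p = 0.0835), among genes of above-median signal (adjusted p = 0.0951) and without Bcl6 cKO replicate 1 (adjusted p = 0.0766). Of 207 ligand values under these settings, 182 kept their direction, 23 changed sign and the rest lay within 0.005 of 0; the cause was not tested. Ltb ran from -0.42 (within low Y-linked signal) to -0.15 (within high), and Tnfsf11 from 0.24 (within high) to 0.84 (within low). Without 1 array the adjusted p ran from 0.0766 to 0.366 for Ltb and from 0.187 to 0.62 for Tnfsf11 (limma). With a term for Y-linked signal the log2 differences were 0.06 for Tnf, 0.19 for Lta, 0.04 for Tnfsf10 and 0.08 for Tnfsf14. Within high Y-linked signal they were 0.06 for Tnf, 0.05 for Lta, -0.11 for Tnfsf8, -0.02 for Tnfrsf22, -0.04 for Sppl2b and 0.02 for Zfp36. Within low Y-linked signal they were 0.06 for Tnf, 0.33 for Lta, 0.13 for Tnfsf10, 0.30 for Tnfsf14, 0.13 for Tnfsf9 and 0.09 for Tnfrsf23. With Y-linked signal and odd or even number, a setting added after the data were seen, they were 0.12 for Lta, 0.11 for Tnfsf10 and 0.11 for Tnfrsf23. Leaving out 1 array gave ranges of -0.08 to 0.03 for Tnf, -0.18 to 0.05 for Lta, -0.12 to 0.04 for Tnfsf10, -0.29 to 0.01 for Tnfsf14 and -0.20 to 0.03 for Tnfrsf23. Tnfsf8 ran from 0.07 (without Bcl6 cKO replicate 2) to 0.35 and Tnfsf4 from -0.26 to -0.11 (without wild-type replicate 3). Fasl was 0.49 with a term for Y-linked signal and 0.06 with array weights, and without 1 array it ran from 0.02 to 0.35. Tnfaip8 was 0.16 with the mean of clusters, 0.12 with array weights and 0.77 within low Y-linked signal. Egr1 passed with odd or even number as a term (-0.37, adjusted p = 0.043) and not with Y-linked signal added to it (-0.29, adjusted p = 0.269); it was -0.12 with Y-linked signal alone and -0.02 within high Y-linked signal.

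With the replicate number as a block, 0 ligand genes were higher and 0 lower, Ltb had -0.31 (adjusted p = 0.167), and 35 genes passed in all. The labels give no meaning for the numbers, so the block is no stated pairing.

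The count of all genes past the threshold was 44. It was 91 with trend and robust moderation, 80 with array weights, 67 and 75 with the filters on mean signal, 93 with odd or even number, 10 with Y-linked signal, 10 with both terms, 0 and 43 within high and low Y-linked signal, and 11 to 139 without 1 array.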

Other observations

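Some other genes differed between odd- and even-numbered arrays in the opposite direction to Tnf, Fasl and Tnfsf14. Over all genes 335 (1.68%) were separate and lower on odd arrays. Icam1, an adhesion gene, was one of them, with odd minus even differences of -0.22 in wild type and -0.60 in Bcl6 cKO. Tnfrsf26, a gene on the list of decoy receptors, had -0.70 and -0.64, with odd and even arrays overlapping. Of the 6 activation markers, 4 had a higher mean on odd arrays (Nr4a1 0.72, Cd69 0.11, Myc 0.05 and Tfrc 0.01) and 2 a lower one (Il2 -0.53 and Il2ra -0.07). Il2, the growth factor of activated T cells, was 10.88 and 11.03 on odd and 11.23 and 11.29 on even wild-type arrays, and 11.05 and 11.54 on odd and 12.23 and 11.88 on even Bcl6 cKO arrays, so that odd and even arrays overlapped. The macrophage and monocyte gene Lyz2 was 7.67 on Bcl6 cKO replicate 2 and 5.82 to 6.58 on the other arrays. That array also had the highest Tnfsf8, Tnfsf10, Jun, Il2 and Icam1, among others. The myeloid markers Itgam (6.08) and Cd14 (6.06) were lowest there, and Csf1r and Adgre1 lay within the range of the other arrays. Icam1, Tnfrsf26, Il2 and Lyz2 were picked after their values were seen, the grouping by number was noticed in the values, and its source was not tested.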
